A study of Mus musculus with 36 samples.

Results

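The 9 genes described here are Pck1, G6pc, Fbp1, Pcx, Slc37a4, Pdk4, Lpin1, Lpin2 and Pklr, which act in gluconeogenesis and in the partition of glucose carbon in liver. They were taken by name, and all 9 were found among the 136300 rows of the liver count table and among the 23875 genes tested. Polyadenylated RNA was sequenced from whole frozen livers of male mice 4 weeks old, killed at zeitgeber time 14, in 4 groups of 3 libraries. Fasted KO livers were of the genotype labelled Ttr CRE+, Vps15f/f and came from mice without food for 24 h. Fed KO livers had the same genotype and free access to food. Fasted WT livers, labelled only WT, came from mice without food for 24 h, and fed WT livers from mice of the same label fed freely. Cre was driven by the Ttr promoter, which is active in hepatocytes, so hepatocytes are the cells meant to lose floxed Vps15. Whether other cells of the liver were spared was not tested. The sample titles call the knockout Vps15LKO and the design text Vps15iLKO, no inducing agent is given, and whether the WT mice carried floxed alleles or Cre is not stated. Within a group the libraries are called a, b and c, and nothing in the labels says that each came from a separate animal, so p-values measure the spread between these libraries.

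Vps15, encoded by Pik3r4, is the regulatory subunit of the class III phosphoinositide 3-kinase, which acts in autophagy and endosomal traffic. Pik3r4 had 21.1, 24.0 and 18.2 CPM (read counts per 1000000 counts of a library, after scaling by the trimmed mean of M-values, TMM) in fasted KO, 24.6, 22.2 and 25.2 in fed KO, 21.0, 24.7 and 21.2 in fasted WT and 23.1, 17.6 and 22.9 in fed WT livers. The groups overlapped, with a KO over WT log2 fold change of −0.08 ± 0.14 (SE) in fasted and 0.18 ± 0.14 in fed livers (edgeR adjusted p = 0.666 and 0.315). Reads summed over all exons cannot show the loss of a few of them, so the label was not checked by this gene and KO stands for the livers labelled knockout. Libraries held 9110836 to 12870944 counts.

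Gluconeogenesis runs from pyruvate, lactate and alanine to glucose through pyruvate carboxylase, phosphoenolpyruvate carboxykinase, fructose-1,6-bisphosphatase and glucose-6-phosphatase. Fasting is known to raise it through glucagon, glucocorticoids and low insulin. Pyruvate dehydrogenase kinases hold pyruvate back from oxidation, and liver pyruvate kinase works in the opposite direction, towards pyruvate. Lipins turn phosphatidate into diacylglycerol, the step at which glycerolipid carbon is sent to triglyceride.

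In fasted KO livers 8 of the 9 genes were lower and 1, Pdk4, was higher than in fasted WT livers, and in fed KO livers 7 were lower and 2, Pdk4 and Lpin2, were higher than in fed WT livers. The largest fall was that of G6pc, which averaged 18.3 ± 16.98 CPM in fasted KO and 958 ± 134 in fasted WT livers (SD, n = 3 each). Fasting raised Pck1, Pcx, Pdk4, Lpin1 and Lpin2 and lowered Pklr in WT livers, whereas in KO livers Pdk4 was the 1 member past the threshold. On the log2 scale the fasting effect itself differed between genotypes for Pck1, Pcx, Pdk4, Lpin1 and Lpin2, and was lower in KO livers for each of them. In CPM, Pdk4 went from a mean of 47.3 in fed to 165 in fasted KO livers, and from 5.29 to 62.4 in WT livers. Its call for the difference held in only 8 of 17 alternative settings. Some other calls were also not firm. In fed livers the KO over WT calls of G6pc and Lpin1 held in 7 and 14 of 18 alternatives. The fasting rise of Pdk4 in KO livers held in 13 of 18, and the fall of Pklr in WT livers in 14 of 18.

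A gene was called where the p of edgeR's quasi-likelihood test, adjusted over all genes, was under 0.05, and the calls have to be read against how much of the table was called. KO over WT in fasted livers passed for 9 of 9 members and for 56.1% of all tested genes. There 8 members were lower, as were 28.1% of all genes, and 1 was higher, as were 28.0%. KO over WT in fed livers passed for 9 of 9 members against 46.2% of genes, with 7 lower (22.8% of genes) and 2 higher (23.3%). Fasted over fed passed in KO livers for 1 of 9 members against 1.52% of genes, with 1 higher (0.834%) and 0 lower (0.683%). In WT livers it passed for 6 of 9 members against 26.3% of genes, with 5 higher (12.5%) and 1 lower (13.8%). The difference of the fasting effects, KO minus WT, passed for 5 of 9 members against 12% of genes, with 5 negative (5.7%) and 0 positive (6.33%). The median log2 fold change of the 9 members was −2.35 for KO over WT in fasted and −1.09 in fed livers, −0.30 for fasted over fed in KO and 1.51 in WT livers, and −1.75 for the difference, with medians over all tested genes of 0.01, 0.01, −0.02, −0.01 and 0.01 in that order.

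**Figure D1:**
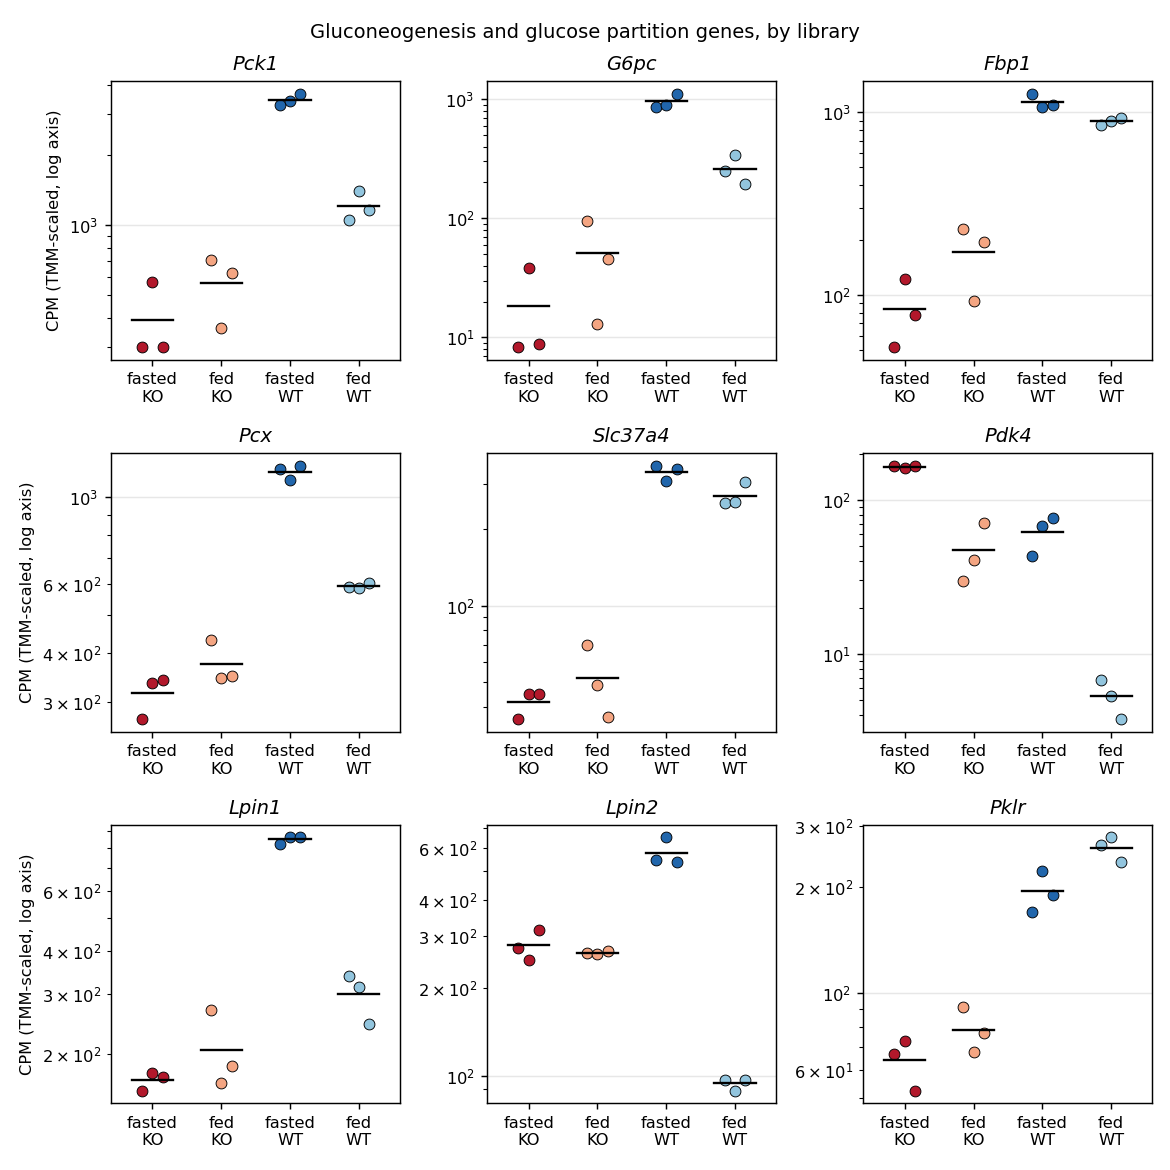
CPM (TMM-scaled, log axes) of the 9 genes in each library, with points for single libraries and a line at each group's mean, for fasted KO, fed KO, fasted WT and fed WT livers. Pck1 reaches 3268 to 3654 CPM in the 3 fasted WT libraries and 300.4 to 570.9 in the 3 fasted KO libraries, and Pdk4 is highest in fasted KO livers.

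The bases before the start of transcription are shown for Pck1, Fbp1 and Pdk4, which stand for some of the patterns seen. Pck1 and Fbp1 were lower in KO livers in both food states, with a called fasting rise in WT livers for Pck1 and none for Fbp1. Pdk4 was higher in KO livers in both food states. Lpin2, higher in fed KO and lower in fasted KO livers, had none of these patterns. All 9 members matched the RefSeq table of promoters (GRCm38.p6), with 15 starts among them. Each printed stretch lies before both the RefSeq start and the gene's first base in GENCODE M21, within the 250 bases before the RefSeq start, and is read 5′ to 3′ on the gene's strand. They lie at chr2:173152823-173153047 (plus strand, Pck1), chr13:62888283-62888532 (minus strand, Fbp1) and chr6:5496310-5496528 (minus strand, Pdk4). Capitals mark a match to a motif searched.
Pck1: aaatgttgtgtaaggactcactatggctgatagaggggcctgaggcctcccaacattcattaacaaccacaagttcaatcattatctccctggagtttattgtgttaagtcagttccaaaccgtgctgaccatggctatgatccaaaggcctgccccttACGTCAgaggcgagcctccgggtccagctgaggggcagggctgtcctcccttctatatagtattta
Fbp1: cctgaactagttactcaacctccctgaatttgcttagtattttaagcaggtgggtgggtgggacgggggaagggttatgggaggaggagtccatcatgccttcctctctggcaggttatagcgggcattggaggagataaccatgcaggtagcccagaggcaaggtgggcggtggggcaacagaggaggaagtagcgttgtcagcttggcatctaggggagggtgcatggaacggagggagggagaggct
Pdk4: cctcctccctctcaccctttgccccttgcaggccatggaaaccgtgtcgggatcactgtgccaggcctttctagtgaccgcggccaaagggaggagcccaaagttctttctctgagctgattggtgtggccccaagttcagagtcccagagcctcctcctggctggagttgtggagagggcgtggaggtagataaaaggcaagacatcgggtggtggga

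The motifs, searched on both strands over the whole 250 bases, were ACGTCA (the core bound by CREB proteins), TGTTTAC (forkhead core), CACGTG (E-box), TATAAA (core promoter element bound by TBP) and the direct repeat DR1 (AGGTCA written in tandem with a single base between, bound by nuclear receptors). They occur in 6.5%, 3.17%, 6.04%, 12.3% and 0.0338% of 32536 distinct windows of the same length. Pck1 held ACGTCA at bases 91 to 86 before its start, and Slc37a4 held its reverse complement TGACGT at 1 site, which lies in the overlapping windows of 2 of its starts. Upstream of G6pc, TATAAA lay 29 to 24 bases before the start, and it was also found before 1 start each of Slc37a4 and Pklr. CACGTG was found before 1 start each of Pcx and Lpin2, and GTAAACA, the reverse complement of the forkhead core, before another start of Lpin2. No match was found before the starts of Fbp1, Pdk4 and Lpin1, and none of the direct repeat before any member. A match is a description of letters and not a site of binding.

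Pcx (ENSMUSG00000024892, chromosome 19, 4510472 to 4621752, plus strand, mm10 here and below) encodes pyruvate carboxylase, the mitochondrial enzyme that makes oxaloacetate from pyruvate. It had 271.0, 335.3 and 340.8 CPM in fasted KO, 431.1, 344.8 and 348.8 in fed KO, 1179, 1107 and 1207 in fasted WT and 590.9, 584.8 and 603.2 in fed WT livers. All 6 KO libraries lay below all 6 WT libraries, and fasted WT lay apart above fed WT. The log2 fold change KO over WT was −1.88 ± 0.12 (SE) in fasted and −0.66 ± 0.12 in fed livers (edgeR adjusted p = 1.91e-09 and 0.000242). Fasting changed it by 0.97 ± 0.12 in WT livers (adjusted p = 1.62e-05). Its value for fasting in KO livers was −0.25 ± 0.12 (adjusted p = 0.298), although the 3 fasted KO libraries all lay below the 3 fed KO libraries. The difference of the fasting effects was −1.22 ± 0.17 (adjusted p = 0.000211). In bulk liver a lower level of such a transcript can mean fewer hepatocytes or less RNA in each, which cannot be told apart here.

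Pck1 (ENSMUSG00000027513, chromosome 2, 173153048 to 173159273, plus strand) encodes the cytosolic phosphoenolpyruvate carboxykinase, which turns oxaloacetate into phosphoenolpyruvate. It had 301.9, 570.9 and 300.4 CPM in fasted KO, 711.0, 363.9 and 622.6 in fed KO, 3268, 3409 and 3654 in fasted WT and 1055, 1400 and 1157 in fed WT livers. Both KO groups lay below both WT groups, and the fasted and fed KO groups overlapped. The KO over WT value was −3.14 ± 0.30 on the log2 scale in fasted and −1.09 ± 0.28 in fed livers (edgeR adjusted p = 2.88e-06 and 0.00711), a level in fasted KO livers 0.114 times that of fasted WT livers. Fasting gave −0.53 ± 0.28 in KO livers (adjusted p = 0.346) and 1.52 ± 0.28 in WT livers (adjusted p = 0.00202), and the difference between these was −2.05 ± 0.39 (adjusted p = 0.00594). Without fasted KO library b, the highest of its group, the fasting value in KO livers passed as a fall (−0.91, edgeR adjusted p = 0.0266). In that setting 1330 genes of the whole table passed for fasting in KO livers, against 362 in the main setting.

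Fbp1 (ENSMUSG00000069805, chromosome 13, 62864753 to 62888282, minus strand) encodes fructose-1,6-bisphosphatase, which removes a phosphate from fructose 1,6-bisphosphate. It had 51.9, 122.0 and 77.5 CPM in fasted KO, 231.0, 92.8 and 195.7 in fed KO, 1263, 1063 and 1095 in fasted WT and 855.7, 898.0 and 935.6 in fed WT livers. KO and WT libraries were far apart in either food state, and the 2 KO groups overlapped. KO over WT was −3.77 ± 0.38 (log2) in fasted and −2.37 ± 0.36 in fed livers (edgeR adjusted p = 1.42e-05 and 0.000377). Fasting gave −1.05 ± 0.35 in KO livers and 0.35 ± 0.34 in WT livers (adjusted p = 0.155 and 0.505), with a difference of −1.39 ± 0.49 (adjusted p = 0.099). The value in WT livers passed in a fit of the 2 WT groups alone (0.34, adjusted p = 0.0238). The value in KO livers passed without fasted KO library b (−1.42, adjusted p = 0.0403) or without fed KO library b (−1.35, adjusted p = 0.031). The difference passed without either of these (−1.77 and −1.69, adjusted p = 0.0269 and 0.00856) and in DESeq2 (−1.40, adjusted p = 0.0412).

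G6pc (ENSMUSG00000078650, chromosome 11, 101367561 to 101377903, plus strand) encodes the catalytic subunit of glucose-6-phosphatase, the last enzyme before glucose is released. It had 8.29, 37.9 and 8.74 CPM in fasted KO, 94.9, 12.9 and 45.3 in fed KO, 866.5, 896.5 and 1112 in fasted WT and 249.3, 340.3 and 194.2 in fed WT livers. Every KO library lay below every WT library, and within KO groups the highest library was 4.57 times the lowest when fasted and 7.37 times when fed. Its KO over WT value was −5.70 ± 0.91 (log2) in fasted and −2.36 ± 0.78 in fed livers (edgeR adjusted p = 0.000689 and 0.036). Fasting gave −1.47 ± 0.78 in KO livers and 1.88 ± 0.76 in WT livers (adjusted p = 0.379 and 0.109), with a difference of −3.34 ± 1.09 (adjusted p = 0.0883). The fed KO over WT call was lost in 11 of 18 alternatives, with −2.003 at library sizes alone (adjusted p = 0.0522), −2.36 with no filter on low counts, −2.35 in a fit of the 2 fed groups alone, −1.90 without fed KO library b, −2.28 without fed KO library c, −2.38, −2.12 and −2.53 without fed WT libraries a, b and c, and −2.36 without any 1 of the fasted WT libraries. The fasting value in WT livers, whose fasted and fed libraries did not overlap, passed in DESeq2 (1.87, adjusted p = 0.0465) and in a fit of the 2 WT groups alone (1.87, adjusted p = 0.000183), and the difference passed in DESeq2 (−3.36), without fed KO library b (−3.80) and without fasted KO library b (−4.45).

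Slc37a4 (ENSMUSG00000032114, chromosome 9, 44396852 to 44402968, plus strand) encodes the transporter that brings glucose 6-phosphate into the endoplasmic reticulum, where glucose-6-phosphatase works. It had 35.8, 44.7 and 44.8 CPM in fasted KO, 70.1, 48.6 and 36.4 in fed KO, 355.9, 308.0 and 345.9 in fasted WT and 252.9, 255.2 and 305.3 in fed WT livers. KO libraries stood far below WT libraries and the KO groups overlapped each other. KO over WT was −3.01 ± 0.19 (log2) in fasted and −2.39 ± 0.19 in fed livers (edgeR adjusted p = 4.43e-09 and 7.21e-08). Fasting gave −0.31 ± 0.18 in KO and 0.31 ± 0.18 in WT livers (adjusted p = 0.408 and 0.22), with a difference of −0.62 ± 0.26 (adjusted p = 0.135) that passed without fed KO library c (−0.82, adjusted p = 0.0218). Within libraries and per kilobase of exon, the ratio of G6pc to its partner Slc37a4 had a geometric mean of 0.399 in fasted KO, 0.904 in fed KO, 3.35 in fasted WT and 1.12 in fed WT livers. Fasted KO libraries (0.231 to 1.00) lay below fasted WT libraries (2.88 to 3.80), and fed KO libraries (0.314 to 1.60) overlapped fed WT libraries (0.753 to 1.58).

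The spread inside the KO groups was shared by Pck1, G6pc and Fbp1. In fasted KO livers library b was the highest for all 3, and in fed KO livers library a was the highest and library b the lowest for all 3. This order was not particular to them. Lpin1 and Pklr had it too, over narrower ranges (155.7 to 175.6 and 52.4 to 72.7 CPM in fasted KO livers, 163.7 to 268.4 and 67.5 to 90.7 in fed KO livers). Pcx had it in fed KO livers only. Slc2a2, the glucose transporter of the hepatocyte membrane, followed the same order, with 43.8, 89.7 and 46.6 CPM in fasted KO and 120.1, 50.8 and 68.5 in fed KO livers. The summed level of 17 hepatocyte markers was 22120, 23430 and 25230 CPM in fasted KO libraries a, b and c and 23890, 21740 and 23970 in fed KO libraries, so library b was not the highest of its group in the fasted state and was the lowest in the fed state. Its part in these values was not tested.

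Pdk4 (ENSMUSG00000019577, chromosome 6, 5483351 to 5496309, minus strand) encodes a kinase that inhibits pyruvate dehydrogenase and so spares pyruvate from oxidation. It had 168.1, 161.3 and 166.6 CPM in fasted KO, 29.7, 41.0 and 71.1 in fed KO, 43.2, 68.0 and 76.0 in fasted WT and 6.75, 5.34 and 3.77 in fed WT livers. Fasted KO was the highest group and fed WT the lowest, and fed KO overlapped fasted WT. Pdk4 was the 1 member higher in KO livers in both food states. It was higher by 1.41 ± 0.31 (log2) in fasted and 3.16 ± 0.37 in fed livers (edgeR adjusted p = 0.00272 and 4.69e-05). Fasting raised it by 1.81 ± 0.31 in KO livers and 3.56 ± 0.37 in WT livers (adjusted p = 0.0258 and 6.46e-05), with a difference of −1.75 ± 0.47 (adjusted p = 0.0378). The rise in KO livers, in which groups did not overlap, missed the threshold without fed KO library a (1.56) or b (1.71), without fasted KO library a (1.80) or c (1.80), and in a fit of the 2 KO groups alone (1.81, adjusted p = 0.0636). The difference missed it with no filter on low counts (−1.62) and without fed WT library b (−1.76) or c (−1.55), fasted WT library b (−1.65) or c (−1.56), fed KO library b (−1.85), or fasted KO library a (−1.76), b (−1.73) or c (−1.75).

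Of the other 3 kinases, Pdk2, a major form in liver, was lower in fasted KO livers (−1.05, edgeR adjusted p = 0.000357) and had −0.19 in fed KO livers (adjusted p = 0.463). Pdk1 was lower in both (−2.53 and −1.97, adjusted p = 1.79e-10 and 3.39e-09), and Pdk3 higher in both (1.61 and 1.24, adjusted p = 0.000169 and 0.001). Pdk4 to Pdk2, per kilobase within a library, had a geometric mean of 0.889 in fasted KO, 0.209 in fed KO, 0.158 in fasted WT and 0.0212 in fed WT livers. In fasted KO livers (0.823 to 0.983) the 2 kinases thus came to similar levels, while in fed WT livers (0.0123 to 0.0289) Pdk4 was a small part of Pdk2.

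Lpin1 (ENSMUSG00000020593, chromosome 12, 16535669 to 16610966, minus strand) encodes a phosphatidate phosphatase that also acts as a nuclear coactivator. It had 155.7, 175.6 and 170.4 CPM in fasted KO, 268.4, 163.7 and 183.6 in fed KO, 825.8, 861.9 and 861.2 in fasted WT and 338.9, 313.1 and 244.4 in fed WT livers. Fasted WT was by far the highest group, fasted and fed KO overlapped, and fed KO library a lay above fed WT library c. The KO over WT value was −2.35 ± 0.17 (log2) in fasted and −0.54 ± 0.16 in fed livers (edgeR adjusted p = 4.07e-09 and 0.00996). Fasting gave −0.30 ± 0.16 in KO livers (adjusted p = 0.352) and 1.51 ± 0.16 in WT livers (adjusted p = 3.54e-06), with a difference of −1.80 ± 0.23 (adjusted p = 9.39e-05). The call in fed livers was lost with library sizes alone (−0.17, adjusted p = 0.346) and without fed WT library a (−0.43), fed KO library b (−0.40) or fed KO library c (−0.47).

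Lpin2 (ENSMUSG00000024052, chromosome 17, 71182560 to 71249817, plus strand) encodes the lipin that carries much of the phosphatidate phosphatase activity of mouse liver. It had 274.2, 249.4 and 314.4 CPM in fasted KO, 262.4, 260.7 and 267.6 in fed KO, 548.2, 653.1 and 536.2 in fasted WT and 97.0, 88.9 and 96.7 in fed WT livers. The 2 KO groups overlapped and lay between the WT groups, above fed WT and below fasted WT. KO over WT was −1.05 ± 0.12 (log2) in fasted and 1.48 ± 0.12 in fed livers (edgeR adjusted p = 6.39e-07 and 2.8e-08). Fasting gave 0.08 ± 0.11 in KO livers (adjusted p = 0.76) and 2.62 ± 0.12 in WT livers (adjusted p = 5.63e-10). The difference of −2.54 ± 0.17 (adjusted p = 1.36e-07) passed under each of its 17 alternatives. Per kilobase, Lpin2 to Lpin1 had a geometric mean of 1.32 in fasted KO, 1.04 in fed KO, 0.537 in fasted WT and 0.251 in fed WT livers, and all 6 KO libraries (0.772 to 1.46) lay above all 6 WT libraries (0.224 to 0.599). Lpin3, the third lipin, was higher in KO livers in either food state (1.98 and 1.92, adjusted p = 4.03e-07 and 1.11e-06), at 17.5 ± 3.50 CPM in fasted KO and 4.42 ± 1.31 CPM in fasted WT livers.

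Pklr (ENSMUSG00000041237, chromosome 3, 89136142 to 89146784, plus strand) encodes the pyruvate kinase of liver and red cells, which makes pyruvate from phosphoenolpyruvate. It had 66.8, 72.7 and 52.4 CPM in fasted KO, 90.7, 67.5 and 76.9 in fed KO, 170.4, 222.5 and 190.6 in fasted WT and 264.1, 277.7 and 235.9 in fed WT livers. All KO libraries lay below all WT libraries, the KO groups overlapped, and fasted WT lay below fed WT. Its KO over WT value was −1.60 ± 0.15 (log2) in fasted and −1.73 ± 0.15 in fed livers (edgeR adjusted p = 6.49e-08 and 5.21e-08). Fasting gave −0.29 ± 0.14 in KO and −0.41 ± 0.14 in WT livers (adjusted p = 0.299 and 0.0386), with a difference of 0.12 ± 0.20 (adjusted p = 0.757). The fall in WT livers missed the threshold without fed WT library a (−0.41) or b (−0.36) and without fasted WT library a (−0.34) or c (−0.41). Pklr shares 711 bases of exon with Hcn3 on the opposite strand, and since the strand setting of the counting is not stated, their reads may not be separated there. Hcn3 itself had 1189 counts over the 12 libraries, against 690 to 2547 counts for Pklr in each.

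Pklr to Pkm, the pyruvate kinase of most other tissues, had a per-kilobase ratio with a geometric mean of 0.858 in fasted KO, 0.876 in fed KO, 11.7 in fasted WT and 6.83 in fed WT livers. Pkm itself was higher in KO livers, by 2.15 (log2) in fasted and 1.24 in fed livers (edgeR adjusted p = 1.54e-09 and 7.33e-07). Fasting lowered Pkm in WT livers (−1.19, adjusted p = 7.19e-06) by more than Pklr (−0.41), so the ratio rose there while Pklr fell. Which cells of the whole liver the Pkm reads came from was not tested. Pck1 to Pklr, 2 enzymes that use or make phosphoenolpyruvate, stood at 5.55 in fasted KO, 6.60 in fed KO, 16.8 in fasted WT and 4.36 in fed WT livers. The ratio was thus lower in KO than in WT livers when fasted and higher when fed, with no overlap of libraries in either state. Fbp1 to Pfkl, the liver phosphofructokinase that works against it, stood at 10.6 in fasted KO, 16.5 in fed KO, 94.4 in fasted WT and 74 in fed WT livers. Pcx to Pdha1, a subunit of pyruvate dehydrogenase, the other main user of pyruvate, stood at 4.08 in fasted KO, 5.04 in fed KO, 12 in fasted WT and 6.99 in fed WT livers. With 3 libraries against 3 an exact permutation test cannot go below p = 0.1, so the 8 ratios, each compared 4 times, are given as values.

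**Figure D2:**
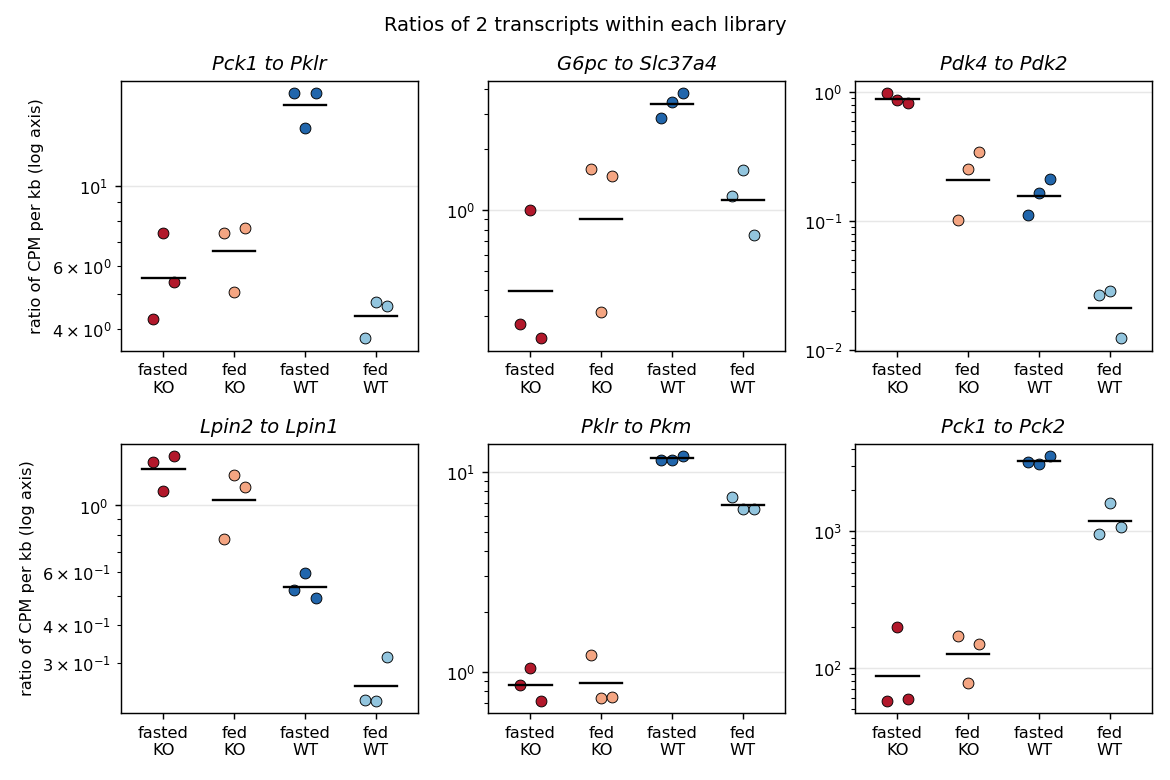
Ratios of 2 transcripts within each library, in CPM per kilobase of exon on log axes, with a line at each group's geometric mean, for fasted KO, fed KO, fasted WT and fed WT livers. Lpin2 to Lpin1 is 0.772 to 1.46 in the 6 KO libraries and at most 0.599 in all 6 WT libraries, and Pklr to Pkm is 0.712 to 1.21 in KO libraries.

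**Figure D3:**
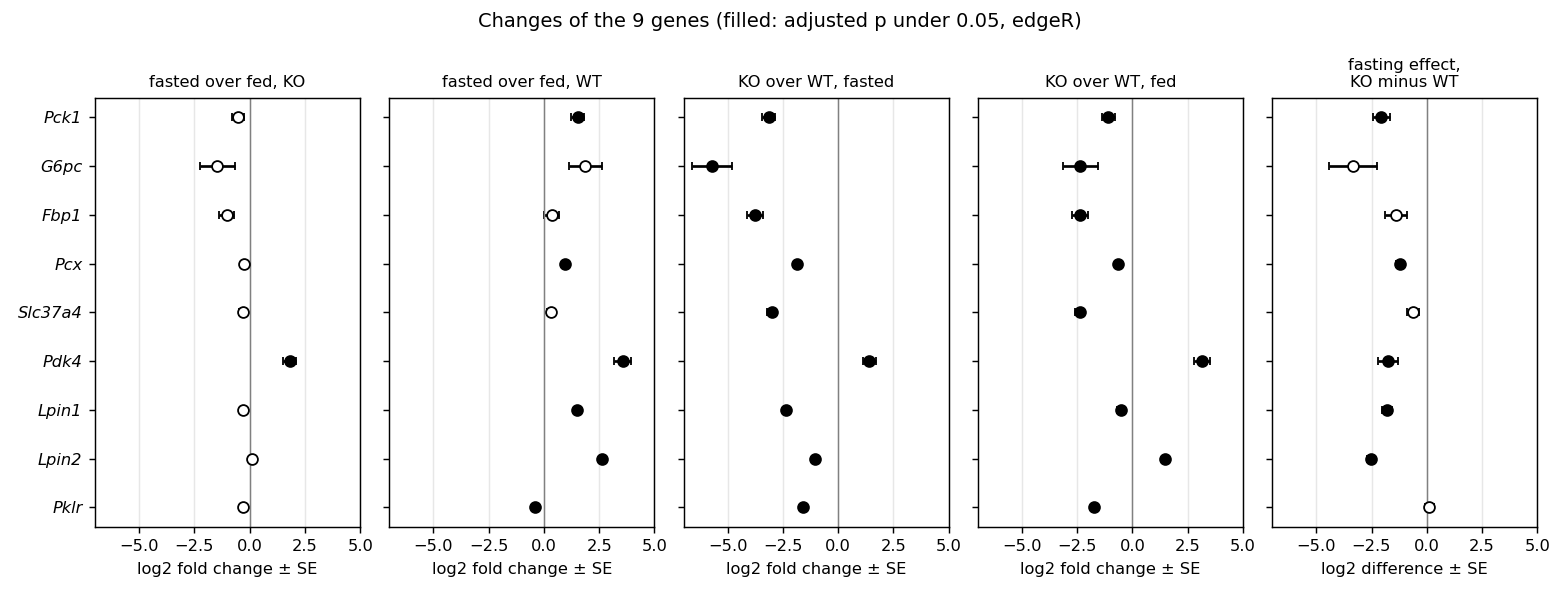
Log2 fold change of each gene with its standard error in the 5 comparisons, fasted over fed in KO and in WT, KO over WT in fasted and in fed livers, and the difference of the fasting effects. Filled points passed an adjusted p of 0.05 (edgeR), which holds for 1, 6, 9, 9 and 5 of the 9 genes from left to right.

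Levels between genes were compared per kilobase of exon. In fasted WT livers Pck1 was the highest member at 1004 ± 57.0 CPM per kilobase (SD, n = 3), rank 44 of 14391 tested genes with an exon length, followed by Fbp1 at 670 ± 63.0. In fasted KO livers Pck1 still led, at 114 ± 45.4 CPM per kilobase and rank 318, but G6pc was the lowest member at 7.59 ± 7.04 and rank 4650, against rank 140 in fasted WT livers. Pdk4 stood at rank 877 in fasted KO, 2924 in fed KO, 2556 in fasted WT and 9846 in fed WT livers. In fed WT livers Fbp1 led the members with 527 ± 23.5 CPM per kilobase, above Pck1 at 351 ± 51.7.

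The labelled cell type, hepatocyte, was checked in the whole-liver libraries with markers of 7 cell types. Hepatocyte markers were all detected in every library for the 17 of 18 that matched, with sums of 22120 to 25230 CPM in fasted KO, 21740 to 23970 in fed KO, 56980 to 58480 in fasted WT and 47930 to 50550 in fed WT livers. Of these 17, 16 were lower in fasted KO and 15 in fed KO than in WT livers, with median log2 fold changes of −1.38 and −1.20. Macrophage and Kupffer cell markers summed to 3338 to 3818 CPM in fasted KO, 3739 to 4497 in fed KO, 641.9 to 895.5 in fasted WT and 1934 to 2480 in fed WT livers, and 20 of 20 were higher in fasted KO and 18 of 20 in fed KO livers. Neutrophil markers summed to 705.8 to 966.9 CPM in fasted KO, 822.9 to 1103 in fed KO, 16.9 to 33.0 in fasted WT (up to 4 of 11 at 0 in a library) and 116.7 to 374.1 in fed WT livers. Stellate cell and cholangiocyte markers also had higher sums in KO than in WT libraries in either food state, with 774.9 to 1117 CPM against 500.7 to 692.4, and 202.3 to 340.6 against 81.1 to 115.6. Their single markers were less uniform. Of 14 stellate cell markers, 9 were higher and 1 lower in fasted KO, and 9 higher and 0 lower in fed KO livers. Of 8 tested cholangiocyte markers, 7 were higher and 0 lower in fasted KO, and 3 higher and 1 lower in fed KO livers. Endothelial cell markers summed to 996.3 to 1119 CPM in fasted KO, 1018 to 1180 in fed KO, 753.0 to 889.2 in fasted WT and 917.3 to 1127 in fed WT livers, overlapping between genotypes when fed, and T, B and NK cell markers stayed at 26.6 CPM or less in sum in every library. Mitochondrial genes took 2.22% to 2.44% of counts in fasted KO, 2.01% to 2.65% in fed KO, 3.29% to 3.65% in fasted WT and 3.43% to 3.62% in fed WT libraries, with no overlap between genotypes. The part of these shifts in the changes of the 9 genes was not tested.

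Set against those hepatocyte markers, the 9 genes did not move as 1 block. In fasted livers the KO over WT value of G6pc lay below all 17 markers, with a difference of −4.32 (log2) from their median, that of Fbp1 below 16 of 17 (−2.39 from the median) and those of Pck1, Slc37a4 and Lpin1 below 15 of 17. Pcx and Pklr lay within the markers' range, above 4 and 5 of 17. Lpin2 lay above 13 and Pdk4 above all 17. In fed livers Slc37a4, Fbp1 and G6pc lay below 15 of 17, Pklr below 14, Pck1 above 10, Pcx and Lpin1 above 15, and Lpin2 and Pdk4 above all 17, by 2.69 and 4.36 from the median. These positions are descriptions, with no test.

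**Figure D4:**
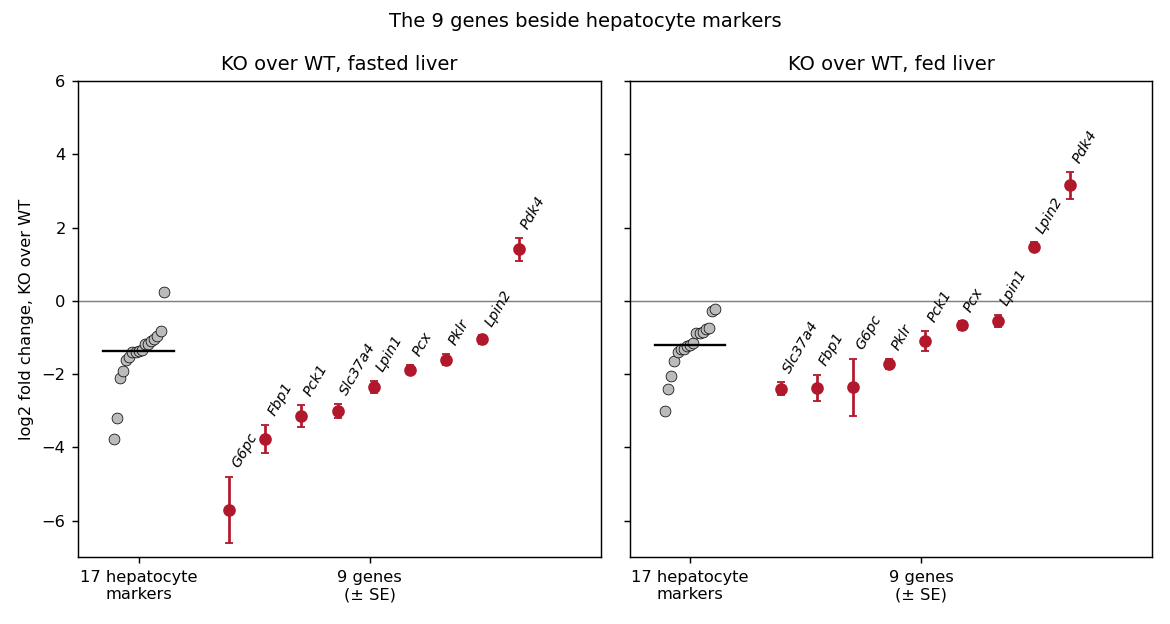
Log2 fold change KO over WT of 17 hepatocyte markers (grey points, line at the median) and of the 9 genes (red, with standard errors), in fasted livers on the left and fed livers on the right. The marker medians are −1.38 and −1.20, with G6pc below all markers in fasted livers and Pdk4 above all of them in both panels.

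Genes around the members were read from 7 lists, whose counts stand beside the shares of all tested genes: 28.1% lower and 28.0% higher in fasted KO over WT, 22.8% and 23.3% in fed KO over WT, and 12.5% higher and 13.8% lower for fasting in WT livers. Of 9 gluconeogenic enzymes and transporters, 6 were lower and 2 higher in KO livers in either food state, with a median of −2.82 (log2) in fasted and −1.09 in fed livers. The 5 gluconeogenic members above and Slc2a2 (−2.82 and −2.27, edgeR adjusted p = 7.09e-05 and 0.000399) were the lower ones, and the higher ones were Pck2, the mitochondrial carboxykinase (2.06 and 2.08, adjusted p = 2.3e-06 and 2.39e-06), and Fbp2, a bisphosphatase known from muscle. Both stayed scarce, with Pck2 at 9.98 ± 3.05 CPM in fasted KO and 2.39 ± 0.10 CPM in fasted WT livers, and Fbp2 at 4.66 ± 0.82 in fasted KO and 0.570 ± 0.280 in fasted WT livers. Pck1 to Pck2 per kilobase had a geometric mean of 88.2 in fasted KO, 127 in fed KO, 3280 in fasted WT and 1190 in fed WT livers. G6pc3, the widely expressed glucose-6-phosphatase, had −0.05 and 0.20 (adjusted p = 0.803 and 0.296). For this list, library sizes alone gave 6 lower and 3 higher in fasted and 5 lower and 3 higher in fed livers. The medians were then −2.31 and −0.72.

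Of 18 genes that bring substrates into gluconeogenesis, 14 were lower in fasted KO and 9 in fed KO livers and the others were not called, with medians of −1.12 and −0.34. Library sizes alone gave 11 lower and 2 higher in fasted and 8 lower and 5 higher in fed livers, with the fed median turning to 0.03. Fasting raised 1 in KO livers, Gpd1, the cytosolic glycerol-phosphate dehydrogenase (0.70, edgeR adjusted p = 0.02), and 13 in WT livers. Among the 13 were glycerol kinase Gk (1.19, adjusted p = 5.78e-06), lactate dehydrogenase Ldha (0.88, adjusted p = 0.000107) and the aspartate-glutamate carrier Slc25a13 (0.85, adjusted p = 0.000402). With library sizes alone 8 of these 13 remained. The difference of the fasting effects, KO minus WT, was called negative for 7 of 18, or 38.9%, against 5.7% of all tested genes. The count was 6 with RLE factors and 5 with library sizes alone. Among the 7 was Got1, the cytosolic aspartate aminotransferase, which had 119.1, 193.5 and 118.3 CPM in fasted KO, 468.8, 213.9 and 289.3 in fed KO, 970.9, 697.0 and 656.5 in fasted WT and 190.8, 198.6 and 253.7 in fed WT livers. Fasting gave Got1 −1.17 in KO livers (edgeR adjusted p = 0.0762) and 1.85 in WT livers (adjusted p = 0.0011), with a difference of −3.03 (adjusted p = 0.00122).

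Of 14 genes of pyruvate dehydrogenase, its kinases and phosphatases and the pyruvate carrier, 11 were lower and 3 higher in fasted KO livers, and 7 lower and 3 higher in fed KO livers. The higher ones were Pdk4, Pdk3 and Pdp1, a phosphatase that reactivates the complex, and the lower ones included Pdk1, the carrier subunit Mpc2 (−1.50 and −1.31) and the other phosphatase Pdp2 (−2.44 and −1.35). The medians were −0.90 and −0.35. Library sizes alone gave 7 lower and 3 higher in fasted and 5 lower and 3 higher in fed livers, with medians of −0.39 and 0.02. Fasting raised 1 of 14, Pdk4, in KO livers and 7 in WT livers, of which 2 remained with library sizes alone.

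Of 24 tested glycolysis genes, 11 were lower and 7 higher in fasted KO, and 11 lower and 8 higher in fed KO livers, with medians of −0.57 and −0.17. The lower genes were 45.8% of the list in either state and the higher ones 29.2% in fasted and 33.3% in fed livers. Library sizes alone gave 5 lower and 8 higher in fasted and 7 lower and 10 higher in fed livers, with the fed median turning to 0.21. Pfkfb1, the liver form of the bifunctional enzyme, was lower in both states (−3.17 and −1.38, edgeR adjusted p = 2.59e-09 and 1.67e-05), and the hexokinase Hk2 (2.80, adjusted p = 2.87e-06, in fasted livers) and Pkm were higher.

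Of 12 phosphatidate phosphatase and glycerolipid synthesis genes, 10 were lower and 2 higher in fasted KO, and 5 lower and 2 higher in fed KO livers, with medians of −1.01 and −0.39. Library sizes alone gave 7 lower and 2 higher in fasted and 4 lower and 3 higher in fed livers. Beside Lpin1, the acyltransferases Gpat4 (−1.85 and −1.31) and Agpat2 (−1.34 and −1.35) were lower in both states, and Lpin3 was higher in both. Fasting raised 5 and lowered 1 in WT livers, with 4 higher and 3 lower at library sizes alone.

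Of 38 genes listed around the regulation of gluconeogenic transcription, 22 were lower and 3 higher in fasted KO, and 17 lower and 6 higher in fed KO livers, with medians of −0.57 and −0.22. The list is broad, and its genes do not all act on gluconeogenesis or in the same direction. Library sizes alone gave 13 lower and 12 higher in fasted livers and 10 lower and 14 higher in fed livers, with the fed median turning to 0.16. Ppargc1a, the coactivator PGC-1α, had 5.16, 8.99 and 4.56 CPM in fasted KO, 15.7, 11.8 and 16.1 in fed KO, 50.6, 30.2 and 26.3 in fasted WT and 5.82, 8.83 and 7.84 in fed WT livers. It was therefore highest in fasted WT livers, lower in fasted KO (−2.51, edgeR adjusted p = 6.04e-06) and higher in fed KO livers (0.96, adjusted p = 0.0161), with a difference of the fasting effects of −3.46 (adjusted p = 0.000166). Srebf1, a sterol response factor that fasting lowered in WT livers (−3.48), was lower in fed KO (−2.69) and higher in fasted KO livers (0.52). Its difference of the fasting effects was 3.21. Higher in KO livers in both fasted and fed states were Sik1 (0.73 and 1.44, adjusted p = 0.00222 and 8.62e-06) and Nr4a1 (2.285 and 2.289, adjusted p = 0.000175 and 0.00019). Cebpb was lower in fasted KO livers (−0.95), Klf15 in both states (−3.11 in fasted livers), Mlxipl in both (−1.65 and −2.09), and Hnf4a in both (−0.97 and −0.88). Foxo1 was lower in fasted KO livers (−1.16) and had −0.38 in fed livers, which passed at an adjusted p of 0.0366 and missed in DESeq2 (0.0584), with RLE factors (0.0502) and with library sizes alone (0.988). Ppara (−1.10 and −0.51) was lower in both states, without a call in fed livers at library sizes alone (−0.13). Nr3c1 (−0.36 and −0.77) and Creb3l3 (−0.42 in fasted livers) were lower, and in fasted livers both turned at library sizes alone, to 0.15 and 0.10. The call of Cebpb was also lost there (−0.44), and Crtc2 had −0.21 and −0.16 (adjusted p = 0.172 and 0.313).

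Of 22 insulin and glucagon signalling genes, 12 were lower and 5 higher in fasted KO, and 6 lower and 3 higher in fed KO livers, with medians of −0.36 and −0.08. In fasted livers 54.5% of the list was lower and 22.7% higher, and in fed livers 27.3% was lower and 13.6% higher, the fed shares being near or below those of all genes. Library sizes alone gave 7 lower and 8 higher in fasted and 3 lower and 11 higher in fed livers, with medians of 0.16 and 0.30. The glucagon receptor Gcgr was lower in both states (−1.87 and −0.98, edgeR adjusted p = 6.44e-10 and 1.2e-06). Irs2, an insulin receptor substrate that fasting raised in WT livers (2.39, adjusted p = 0.00446), was lower in fasted KO (−1.17, adjusted p = 0.0404, and −0.66 with no call at library sizes alone) and higher in fed KO livers (1.29, adjusted p = 0.0399). Igfbp1, a secreted binding protein that fasting raised in WT livers (3.93, adjusted p = 0.0122), was higher in fed KO livers (4.09, adjusted p = 0.00545) and had 0.83 in fasted livers (adjusted p = 0.405).

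**Figure D5:**
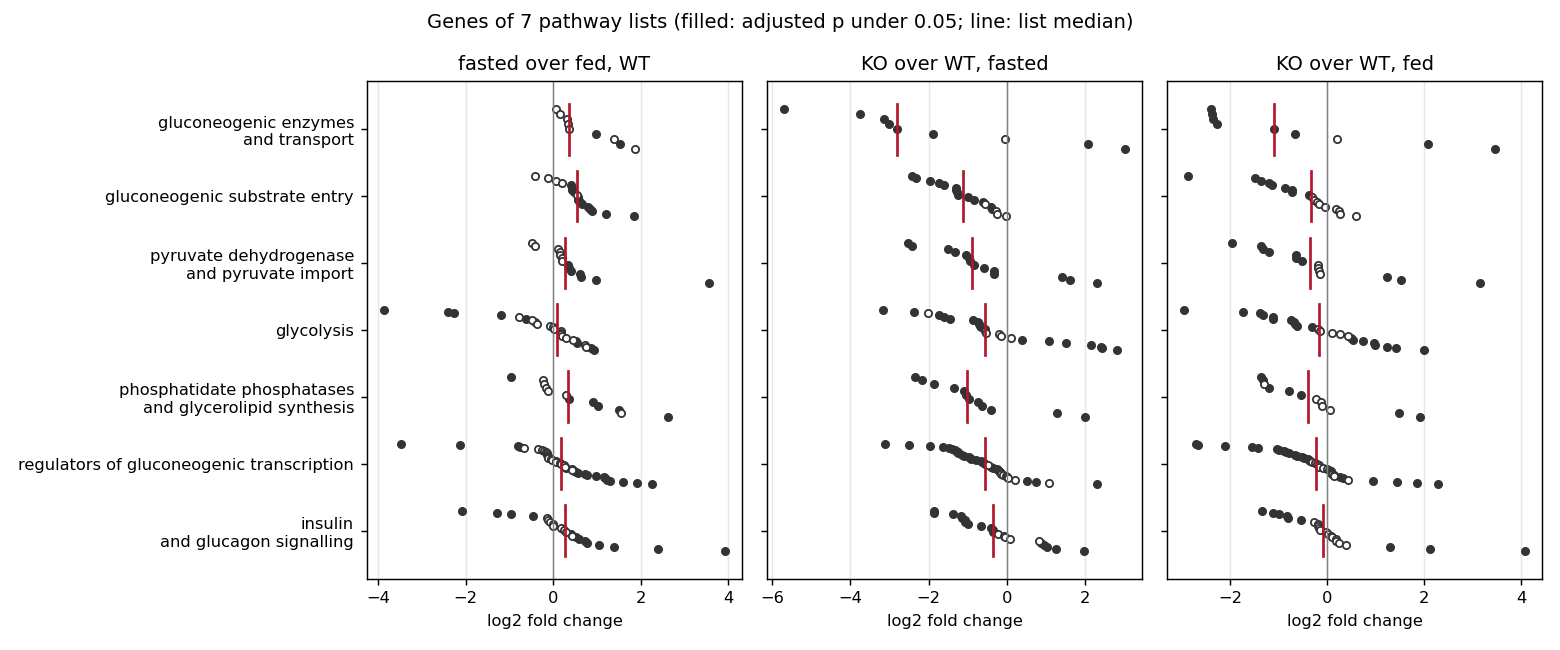
Log2 fold change of every tested gene of 7 lists (points, filled where the adjusted p passed 0.05 in edgeR, red line at the list's median) for fasted over fed in WT, KO over WT in fasted and KO over WT in fed livers. Substrate entry genes have 13 of 18 higher after fasting in WT livers, and 14 of 18 lower in fasted KO livers.

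The genes with the profile most like each member over the 12 libraries were found by the root mean square difference of log2 CPM, each gene centred on its own mean, among 10021 candidates with a mean of at least 5 CPM. Pcx lay closest to Slc38a4 and Suclg1 (0.131 and 0.145), Slc37a4 to Pxmp2 and Pipox (0.140 and 0.146), and Pklr to Ebp and Mtfp1 (0.168 and 0.176). Lpin1 was nearest to Slc25a51 and Fh1 (0.216 and 0.228), Fbp1 to Gls2 and Hpd (0.236 and 0.249), Lpin2 to Slc25a33 and Ccng2 (0.252 and 0.273), and Pck1 to Elovl2 and Ctcflos (0.295 and 0.318). G6pc, with Nlrp6 and Bhmt (0.779 and 0.847), and Pdk4, with Myom1 and Maff (0.667 and 0.683), had no neighbour as near. Among the members the shortest distance was that of Lpin1 and Pcx (0.257), and Pck1 lay 1.27 from G6pc, 0.694 from Fbp1 and 2.52 from Pdk4. Maff averaged 74.2 CPM in fasted KO, 49.5 in fed KO, 25.8 in fasted WT and 4.46 in fed WT livers, the same order as Pdk4 except for fed KO and fasted WT livers.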

How the data were processed

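The deposited liver table holds raw read counts per gene on build mm10, with HISAT2, Subread, DESeq2 and edgeR named in the submitters' processing notes; versions and strand settings are not given in the sources used here. Of its 136300 rows, 48526 carry Ensembl identifiers, 48058 of them matched to a symbol in GENCODE M21 (the source of coordinates and exon lengths), and 87774 carry NONCODE identifiers. The fibroblast samples of the series were not used here. Liver columns give the group and no replicate number. The number of columns not used was 0. Replicate libraries differed by more than sampling noise (chi-square per degree of freedom 6.59 to 14.6).

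Counts were filtered with filterByExpr, scaled by TMM (factors 0.801 to 1.22) and tested with edgeR 4.0.16 (R 4.3.3), quasi-likelihood F test with robust dispersion, 1 mean per group over 12 libraries, Benjamini-Hochberg over all 23875 genes, threshold 0.05. Standard errors are the size of the log2 fold change over the root of F, and ± values on CPM are SDs over 3 libraries. Alternatives were DESeq2 1.42.0, RLE factors, library sizes alone, no filter, Ensembl genes only, the compared groups alone, and each library left out in turn.

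The members, the lists and the tests were chosen with earlier results of these data known. Named beside the members were, per list, genes of smallest adjusted p, paralogs and a fixed set of regulators whatever their p; the text prints part of these, and some are not reported here. The fit was checked on counts simulated for fasted over fed WT liver (22332 genes). Of 100 genes given a log2 change of 1, edgeR recovered 56 and DESeq2 61. Of 100 given a change of 2, they recovered 93 and 94, and their false calls numbered 9 and 19. All libraries were simulated at fed WT levels, with these changes placed in the fasted WT group alone. The check therefore does not cover scaling where much of the table shifts, nor the KO and difference tests.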

Additional observations from a re-analysis of the deposited data

Results flagged for a closer look

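For 5 of the 9 genes the effect of fasting in KO livers differed from that in WT livers by the test of the difference itself (edgeR quasi-likelihood, adjusted over all tested genes). The difference, KO minus WT on the log2 scale, was −2.05 for Pck1, −1.22 for Pcx, −1.75 for Pdk4, −1.80 for Lpin1 and −2.54 for Lpin2. The call held in all 17 alternatives for Pck1, Pcx, Lpin1 and Lpin2, and in 8 of 17 for Pdk4. For Pck1, Pcx and Lpin1 the fasted KO mean lay below the fed KO mean and the fasted WT mean above the fed WT mean. Lpin2 had close means in the KO groups, 279 ± 32.8 CPM in fasted KO and 264 ± 3.61 CPM in fed KO livers, against 579 ± 64.3 CPM in fasted WT and 94.2 ± 4.63 CPM in fed WT livers. Pdk4 rose with fasting in both genotypes. Groups of 3 libraries were not tested for a library standing apart.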

How the results depend on the processing

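Of 45 member results, 32 kept their direction and their side of the threshold under all 18 alternatives (17 for the difference of the fasting effects), and of 801 values 754 kept both, 33 lost the call, 13 gained it and 1 changed sign. The sign change was Lpin2 for fasting in KO livers without fasted KO library c, at −0.0060, within a range of −0.0060 to 0.16 with 1 library left out. The number of members past 0.05 ranged, with 1 library left out, from 9 to 9 for KO over WT in fasted livers, 7 to 9 in fed livers, 0 to 3 for fasting in KO livers (0 without fed KO library a or fasted KO library a or c, 3 without fasted KO library b), 5 to 6 in WT livers and 4 to 6 for the difference. Fitting the 2 KO groups alone gave 0 for fasting in KO livers, with 33 genes past 0.05 in the whole table. That whole-table count was 362 in the main setting, 937 with DESeq2, 1456 with no filter and 563 with Ensembl genes only. It was 7 without fasted KO library a, 7 without library c, 1330 without library b, 57 without fed KO library a and 45 without library c. Library sizes alone, without TMM, moved the median of all genes by 0.51 (log2) for KO over WT in fasted and 0.37 in fed livers, −0.05 for fasting in KO and −0.19 in WT livers, and 0.14 for the difference. They gave 11706 higher and 3567 lower genes in fasted KO over WT (6686 and 6697 with TMM), 9925 and 3055 in fed (5572 and 5450), 165 and 302 for fasting in KO (199 and 163), 1785 and 5202 in WT livers (2981 and 3301), and 2244 and 1014 for the difference (1512 and 1361). No member changed direction under them. No paired analysis was possible because the liver columns carry no replicate numbers. The cause of these dependences was not tested.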
